A study of Homo sapiens with 15 samples.

Results

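A set of 7 genes of transforming growth factor beta (TGF-beta), activin and bone morphogenetic protein (BMP) signalling were followed across 15 RNA libraries of JIMT-1, an established line of human HER2-positive breast cancer cells. They are the ligand genes TGFB1 and TGFB2, the activin subunit genes INHBA and INHBB, the receptor genes TGFBR2 and BMPR1A, and the signal transducer gene SMAD3. All 7 members were on the panel of 758 genes and all 7 passed the filter on low values, which left 622 genes for testing. The members were chosen by name with the differences from control already known. Those differences are given as descriptions with no p-value, and which members met the call rule is listed as a description too. Only knockdown line 1 against knockdown line 2 is read as a test of them.

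The 4 groups of the study were compared. The CTL group held 4 libraries of JIMT-1 control cells, the reference of the study. The HSL119 group held 3 libraries of cells given the compound HSL119 at 1 ug/ul, as the labels write the dose. KD1 and KD2 held 4 libraries each of lines in which the kinase gene HUNK was knocked down, grown with puromycin at 1 ug/ul, also as the labels write it. All cells were grown in DMEM with 10% fetal bovine serum, glutamine and penicillin/streptomycin. The labels give no hairpin sequence for KD1 or KD2 and do not say whether a line is a clone. They give no vehicle, control shRNA or puromycin for CTL and no length of treatment, so an effect of HUNK loss and one of puromycin or of carrying an shRNA cannot be told apart. HUNK is not on the panel, and the knockdown was therefore not checked here. The series title calls the changes after HSL119 equivalent to those after HUNK shRNA, and the values below set the compound and the knockdowns side by side.

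TGF-beta and activin ligands bind pairs of type II and type I receptor kinases, and the activated type I receptor phosphorylates SMAD2 and SMAD3, which move to the nucleus with SMAD4 and regulate transcription. BMP ligands use other receptors, among them the type I receptor BMPR1A, and act through SMAD1, SMAD5 and SMAD9. In breast epithelium TGF-beta is known to slow proliferation in normal cells and to promote a mesenchymal, invasive state in many carcinomas, where SNAI2 and vimentin are among its known targets.

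The 250 bases before the annotated start are shown for TGFB1 and TGFB2, the pair of ligand genes that were both lowest in HSL119, and for BMPR1A, which was highest there. They come from RefSeq on GRCh38.p14, in which all 7 members had at least 1 such window, and are printed 5′ to 3′ on the strand of the gene. Capitals mark matches on either strand to the letters searched, which were TATAAA (the TATA box), GGGCGG (a GC box), CACGTG (an E-box), TGANGTCA (like a cyclic AMP response element), TGANTCA (AP-1) and GTCTAGAC (a SMAD palindrome).
TGFB1, chr19:41353923-41354172, minus strand: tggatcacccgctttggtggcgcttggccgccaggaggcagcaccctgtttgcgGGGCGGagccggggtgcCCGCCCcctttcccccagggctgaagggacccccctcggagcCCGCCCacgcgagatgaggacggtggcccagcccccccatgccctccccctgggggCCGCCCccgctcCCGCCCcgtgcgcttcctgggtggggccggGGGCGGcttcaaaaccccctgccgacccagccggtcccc
TGFB2, chr1:218345086-218345335, plus strand: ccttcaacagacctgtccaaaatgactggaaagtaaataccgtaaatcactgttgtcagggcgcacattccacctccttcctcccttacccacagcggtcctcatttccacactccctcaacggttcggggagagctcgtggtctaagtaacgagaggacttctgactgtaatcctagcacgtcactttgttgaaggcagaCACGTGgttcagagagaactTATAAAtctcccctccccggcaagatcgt
BMPR1A, chr10:86755513-86755762, plus strand: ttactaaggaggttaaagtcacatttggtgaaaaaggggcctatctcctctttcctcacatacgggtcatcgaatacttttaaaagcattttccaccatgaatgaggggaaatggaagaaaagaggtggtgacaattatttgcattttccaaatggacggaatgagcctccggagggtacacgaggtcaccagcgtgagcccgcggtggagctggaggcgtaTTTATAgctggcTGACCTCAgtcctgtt
No capitals overlap between motifs in these windows. The TGFB1 window is 76.8% G or C and holds 6 GC boxes and no TATAAA, whereas the TGFB2 window is 50.4% G or C and holds a TATAAA from 29 to 24 bases before the start and a CACGTG from 49 to 44 bases before it. The BMPR1A window is 47.2% G or C, with TATAAA on the other strand from 28 to 23 bases before the start and a TGANGTCA match on the other strand from 16 to 9 bases before it. Of the 35116 windows in the RefSeq table, 42.6% hold GGGCGG, 10.7% TATAAA, 6.34% CACGTG, 6.87% TGANGTCA, 6.57% TGANTCA and 0.182% GTCTAGAC. TGFB1 and TGFB2 therefore share none of these motifs in the windows shown. INHBB and SMAD3 were also lowest in HSL119. The INHBB window holds 10 GC boxes, and the first of 5 SMAD3 windows holds 4 GC boxes and 1 CACGTG. TGFBR2, which was highest in HSL119, holds 2 GC boxes in the second of its 2 windows, so GC boxes were not confined to the members lowest there. A match here is a run of letters, not a measured binding site.

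Levels are given as scaled counts, the deposited normalized counts after a shift per library that makes the typical gene equal across libraries. Levels of different genes are not compared, since each gene has its own probe. A difference is a log2 difference of group means on this scale with its standard error (SE), and a gene passed only if its adjusted p (limma, Benjamini-Hochberg over the 622 genes) was under 0.05 in the same direction in 10 fits, on each of 5 scalings, with all libraries and with near-duplicate libraries averaged. Recovered counts per library were between 1241234 and 1561639. Libraries 1 and 2, and libraries 3 and 4, of CTL, KD1 and KD2 were close to each other (chi-square per degree of freedom 1.14 to 1.44, with 19.7 for libraries 3 and 4 of KD2). The pairs of a knockdown line stood apart (111 to 143), and those of CTL less so (4.67 to 4.80). The HSL119 libraries were not averaged, though their values (3.93 to 17.1) were below that of libraries 3 and 4 of KD2. The p-values thus measure only the spread between these libraries, which may be technical. HSL119 replicate 2 had 619 genes over the floor of 20, against 531 and 546 in the other HSL119 libraries. The deposited log2 values put the typical gene 0.41 to 0.43 higher in all 3 groups than in CTL, and the differences below are relative to that shift.

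**Figure D1:**
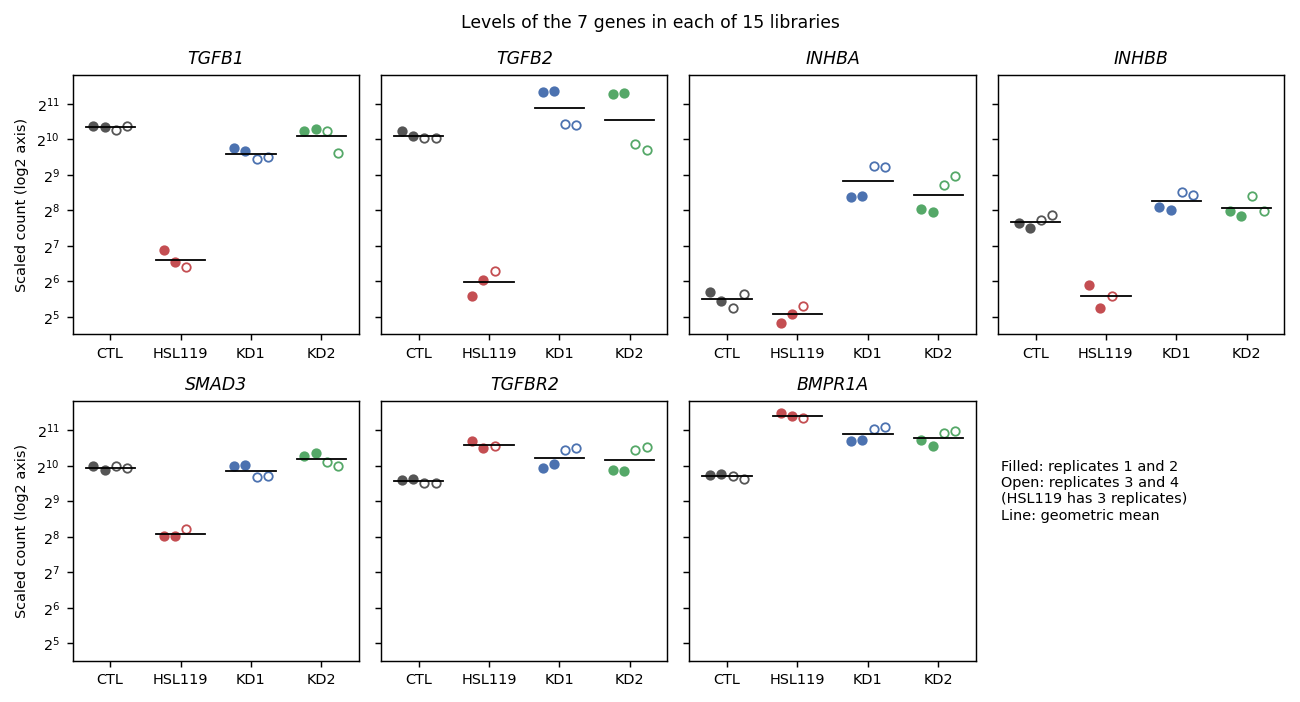
Scaled count (log2 axis) of each of the 7 genes in each of the 15 libraries, with filled points for replicates 1 and 2, open points for replicates 3 and 4 and a line at the geometric mean of each group. TGFB1 and TGFB2 lie between 48.3 and 118 in the 3 HSL119 libraries and at 693 or higher in all others, INHBA is high only in the KD1 and KD2 libraries, and BMPR1A is above CTL in all 11 treated or knockdown libraries.

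TGFB1 encodes the founding ligand of the family, which cells secrete in a latent form. Its scaled count was 1333, 1301, 1242 and 1336 in the CTL libraries and 118, 92.8 and 85.7 in the HSL119 libraries. In KD1 it was 861, 825.5, 693 and 732, and in KD2 it was 1201, 1260.4, 1213 and 780.5. The HSL119 libraries lay far below all others, the KD1 libraries all lay below CTL, and KD2 overlapped CTL, with replicate 4 at the level of KD1. The difference from CTL was -3.73 (SE 0.16) in HSL119, 13.3-fold lower, and it ranged from -3.99 to -3.34 over the 5 scalings. It was -0.75 (SE 0.14) in KD1, with a range of -0.86 to -0.33, and -0.25 (SE 0.14) in KD2, where the sign turned with the scaling, from -0.39 to 0.17.

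TGFB2 encodes a second TGF-beta ligand, which needs betaglycan to bind TGFBR2 well. It stood at 1217, 1099, 1052 and 1054 in CTL and at 48.3, 65.7 and 78.7 in HSL119. The knockdown libraries split in pairs, with 2573 and 2633 followed by 1393 and 1359 in KD1, and 2491 and 2513 followed by 933.5 and 828 in KD2. Every HSL119 library was thus below 80 and every KD1 library above CTL, whereas in KD2 replicates 1 and 2 were above CTL and replicates 3 and 4 below it. The difference from CTL was -4.13 (SE 0.39) in HSL119, 17.5-fold lower, 0.78 (SE 0.36) in KD1 and 0.43 (SE 0.36) in KD2.

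INHBA encodes the beta A subunit, which pairs with itself to form activin A or with the alpha subunit to form an inhibin. Its scaled count was low in CTL, at 52.5, 44.1, 38.0 and 49.8, and in HSL119, at 28.6, 34.0 and 39.3, where the groups overlapped. It was 335, 342.5, 614 and 592 in KD1 and 264, 249.7, 419.8 and 502 in KD2. All 8 knockdown libraries were thus above all 7 CTL and HSL119 libraries, with no overlap. The difference from CTL was 3.30 (SE 0.26) in KD1, 9.87-fold higher, and 2.91 (SE 0.26) in KD2, 7.50-fold higher. In HSL119 it was -0.44 (SE 0.28), close to the floor, and ran from -0.70 to -0.08 over the scalings.

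INHBB encodes the beta B subunit, found in activin B. Its scaled count was 199, 183, 212 and 232 in CTL, 60.0, 37.9 and 48.1 in HSL119, 273, 260.3, 366 and 346 in KD1 and 254, 229.7, 338 and 255 in KD2. The HSL119 libraries were the lowest, KD1 lay above CTL throughout, and KD2 overlapped CTL by 1 library. INHBB differed from CTL by -2.11 (SE 0.18) in HSL119, 4.30-fold lower, 0.58 (SE 0.16) in KD1 and 0.37 (SE 0.16) in KD2. Both activin subunit genes were thus higher on average in the knockdown lines than in CTL, while in HSL119 INHBB was lower and INHBA was lower on average, with overlap.

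TGFBR2 encodes the type II receptor that binds TGF-beta. It stood at 774, 788, 738 and 735 in CTL and at 1648, 1448 and 1495.5 in HSL119. In KD1 it was 987, 1050.2, 1381 and 1439.5, and in KD2 it was 941, 927, 1394 and 1468. Every HSL119 and knockdown library was above every CTL library, and replicates 3 and 4 of both lines were higher than replicates 1 and 2. TGFBR2 differed from CTL by 1.01 (SE 0.17) in HSL119, 2.02-fold higher, 0.66 (SE 0.16) in KD1 and 0.61 (SE 0.16) in KD2.

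BMPR1A encodes a type I receptor for BMP ligands. Its scaled count was 848, 877, 839 and 783 in CTL and 2889, 2681 and 2619.6 in HSL119. In KD1 it was 1653, 1678, 2102.5 and 2199, and in KD2 it was 1689, 1512, 1938 and 2019. The 3 HSL119 libraries were the highest, the knockdown libraries came next, and no library of these groups reached down to CTL. BMPR1A differed from CTL by 1.71 (SE 0.12) in HSL119, 3.26-fold higher, 1.18 (SE 0.11) in KD1, 2.26-fold higher, and 1.09 (SE 0.11) in KD2, 2.13-fold higher.

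SMAD3 encodes the transducer that TGF-beta and activin receptors phosphorylate. Its scaled count was 1020.1, 937, 1011 and 976 in CTL and 259, 261 and 295 in HSL119. It was 1019.8, 1047, 824 and 832 in KD1 and 1251, 1306, 1093 and 1016 in KD2. The HSL119 libraries stood alone at the bottom, and both knockdown lines overlapped CTL. SMAD3 differed from CTL by -1.86 (SE 0.11) in HSL119, 3.64-fold lower. In KD1 it was -0.09 (SE 0.10), with the sign turning over the scalings from -0.20 to 0.33, and in KD2 it was 0.24 (SE 0.10).

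**Figure D2:**
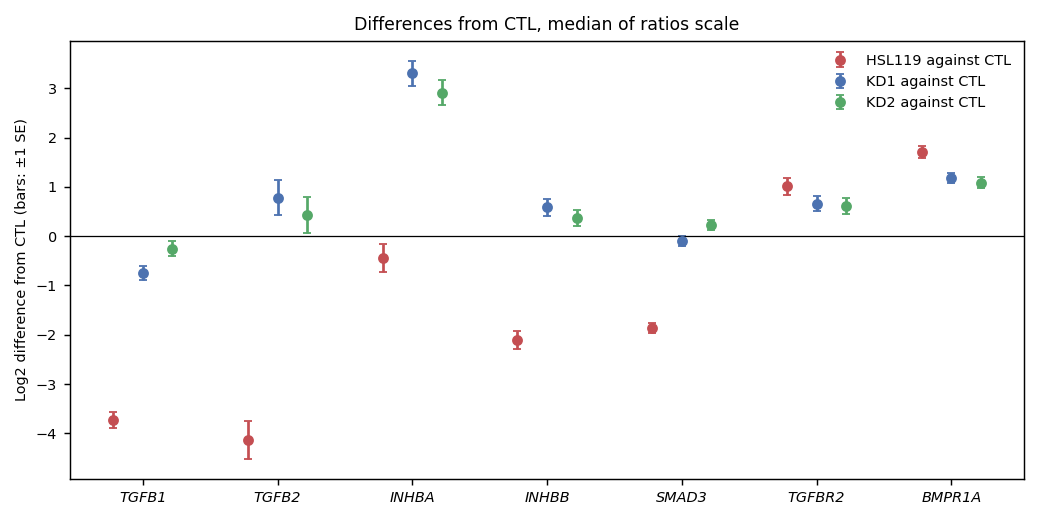
Log2 difference from CTL of each of the 7 genes in HSL119 (n = 3), KD1 (n = 4) and KD2 (n = 4), against CTL (n = 4), with bars of 1 SE from limma. TGFB2 has the lowest value in HSL119, at -4.13, INHBA has the highest in both knockdown lines, at 3.30 and 2.91, and TGFBR2 and BMPR1A lie above 0 in all 3 comparisons.

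Ordered by group mean, HSL119 was lowest and CTL highest for TGFB1 (98.9 ± 17.1, n = 3, and 1303 ± 43.5, n = 4, mean ± SD), with KD1 (778 ± 78.6, n = 4) and KD2 (1114 ± 224, n = 4) between them and the KD2 mean within its SD of CTL. For TGFB2, HSL119 (64.3 ± 15.2, n = 3) and CTL (1105 ± 77.7, n = 4) were below KD2 (1691 ± 937, n = 4) and KD1 (1990 ± 709, n = 4), but the KD2 mean was within its SD of both CTL and KD1. The order for INHBA was HSL119, CTL, KD2 and KD1 (34.0 ± 5.34, n = 3, 46.1 ± 6.46, 359 ± 123 and 471 ± 153, n = 4 each), with KD1 and KD2 within 1 SD of each other. INHBB had the same order (48.7 ± 11.1, n = 3, 206 ± 20.7, 269 ± 47.4 and 311 ± 52.3, n = 4 each), and again the knockdown lines were within 1 SD. For SMAD3 the order was HSL119, KD1, CTL and KD2 (272 ± 20.7, n = 3, 931 ± 119, 986 ± 37.7 and 1167 ± 135, n = 4 each), with CTL within the SD of KD1. TGFBR2 and BMPR1A ran from CTL (759 ± 26.4 and 837 ± 39.2, n = 4) through KD2 (1183 ± 289 and 1789 ± 232, n = 4) and KD1 (1214 ± 229 and 1908 ± 283, n = 4) to HSL119 (1531 ± 105 and 2730 ± 141, n = 3), with KD1 and KD2 within 1 SD of each other for both genes.

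Against CTL, 2 members passed as higher in HSL119 (TGFBR2 and BMPR1A) and 4 as lower (TGFB1, TGFB2, INHBB and SMAD3). Of all tested genes, 20.3% passed as higher and 18.2% as lower in that comparison. In KD1 2 members passed as higher (INHBA and BMPR1A) and 0 as lower, where 6.91% and 1.13% of all tested genes passed. In KD2 the same 2 passed as higher and 0 as lower, where the shares were 8.68% and 2.41%. On the median of ratios scale alone the shares were near balance, with 24.3% higher and 21.9% lower in KD1 and 28.9% and 24.4% in KD2. With only CTL and the line compared in the limma fit, 0 of the 622 genes passed in either line (88 and 90 at an unadjusted p under 0.05 in all 10 fits), members included. Since the members were chosen with these comparisons known, the calls are descriptions, not tests of the members. The counts are not read against the shares. The TGFBR2 call in HSL119 was lost without HSL119 replicate 1, and the BMPR1A call in KD1 without HSL119 replicate 2 or 3.

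The knockdown libraries differed within each line by replicate number. Between the mean of replicates 3 and 4 and that of replicates 1 and 2, the log2 difference of TGFB2 was -0.92 in KD1 and -1.51 in KD2, and CTL stood at -0.14. For INHBA it was positive in the knockdowns, at 0.83 (KD1) and 0.84 (KD2), with CTL at -0.15. TGFBR2 was also higher in replicates 3 and 4, by 0.47 and 0.62, and BMPR1A by 0.37 and 0.31, against -0.08 and -0.09 in CTL. TGFB1 (-0.24 and -0.34), SMAD3 (-0.32 and -0.28) and INHBB (0.42 and 0.28) also differed, and CTL was at -0.03, 0.02 and 0.22 for these 3 genes. The direction was the same in both lines for all 7 genes, and the panel at large behaved likewise. Over all tested genes, deviations from the group means correlated at 0.553 to 0.780 between differently numbered KD1 and KD2 libraries within a pair of replicates. Across the pairs they correlated at -0.771 to -0.556. The share of all tested genes with the same direction is not given, so the 7 are not read as a trait of the members. Across the 622 tested genes, 43 (6.91%) differed by more than 2-fold between the pairs in KD1 and 65 (10.5%) in KD2, but 3 (0.482%) in CTL, and the labels do not say what separates the pairs.

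Taken within each pair of replicates, some differences from CTL changed a great deal in size. INHBA was 2.81 above CTL in KD1 and 2.42 in KD2 in replicates 1 and 2, and 3.79 and 3.40 in replicates 3 and 4. BMPR1A was 0.95 and 0.89 above CTL in replicates 1 and 2, and 1.41 and 1.29 in replicates 3 and 4. These 2 genes were therefore higher than CTL in both pairs of both lines. TGFBR2 was 0.38 and 0.26 above CTL in replicates 1 and 2, and 0.94 and 0.96 in replicates 3 and 4. TGFB2 was 1.17 and 1.11 above CTL in replicates 1 and 2, but 0.39 in KD1 and -0.26 in KD2 in replicates 3 and 4, so its sign in KD2 depended on the pair. SMAD3 was 0.08 above CTL in KD1 in replicates 1 and 2 and at -0.26 in replicates 3 and 4, so its sign in KD1 turned too, while in KD2 it was 0.39 and 0.09 above CTL. INHBB was above CTL in both pairs, by 0.48 and 0.68 in KD1 and by 0.34 and 0.40 in KD2. TGFB1 was lower than CTL in both pairs of both lines, with differences of -0.64 and -0.85 in KD1 and of -0.10 and -0.40 in KD2.

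**Figure D3:**
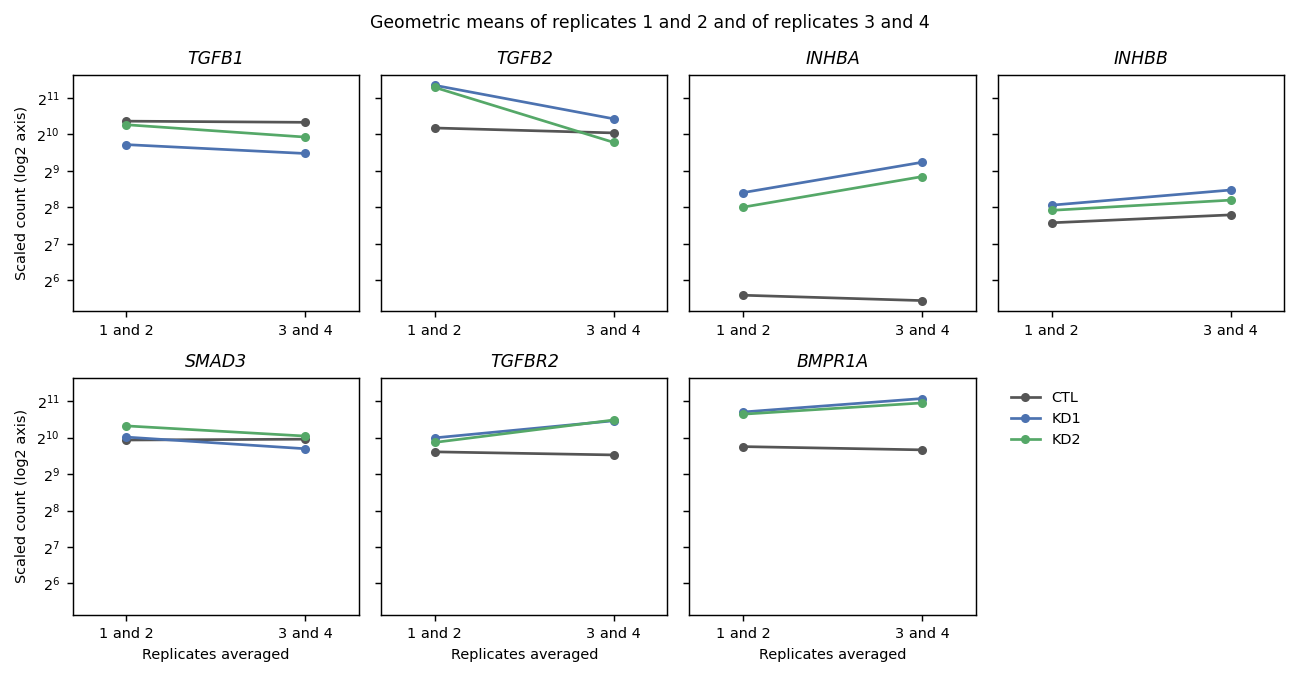
Geometric mean scaled count (log2 axis) of replicates 1 and 2 and of replicates 3 and 4 for each of the 7 genes in CTL, KD1 and KD2, with a line joining the pairs of a group. The KD1 and KD2 lines slope down for TGFB2 (-0.92 and -1.51) and up for INHBA (0.83 and 0.84), while the CTL lines are nearly level.

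KD1 was then tested against KD2, the comparison that the choice of members rests on least. Without pairing, 0 of the 7 members passed, and 1 of all 622 genes did (0.161%), the vimentin gene VIM. TGFB1 was lower in KD1 than in KD2 by a log2 difference of -0.50 (95% interval -0.81 to -0.19), with an adjusted p of 0.0510 (limma) that became 0.549 with near-duplicate libraries averaged. SMAD3 was also lower in KD1, by -0.33 (-0.55 to -0.11, adjusted p = 0.0675, and 0.680 with libraries averaged, limma). For the other members the intervals were -0.42 to 1.12 for TGFB2, -0.16 to 0.95 for INHBA, -0.14 to 0.56 for INHBB, -0.29 to 0.39 for TGFBR2 and -0.14 to 0.32 for BMPR1A. Their adjusted p lay between 0.478 and 0.949 (limma), which does not show that the lines were alike. At an unadjusted p under 0.05, TGFB1 and SMAD3 passed on the main scale and 0 members did in all 10 fits, while edgeR on the recovered counts called 1 member, TGFB1.

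Same-numbered libraries of KD1 and KD2 deviated together from their group means (correlation 0.594 to 0.764 over all tested genes). So did differently numbered ones within replicates 1 and 2 or within 3 and 4 (0.553 to 0.780). The 4 same-numbered pairs are thus 2 sets of near-duplicates, which the p-values without averaging take as independent. The lines were also compared in the 8 knockdown libraries with the replicate number as a block, a fit added after seeing the data. INHBA then passed on all 5 scalings as higher in KD1, by 0.40 (SE 0.08, adjusted p = 0.0108, limma), and was higher in 4 of 4 pairs. SMAD3 passed as lower in KD1, by -0.32 (SE 0.05, adjusted p = 0.00499, limma), and was lower in 4 of 4 pairs. Beside these 2 of 7 members, 17.7% of all tested genes passed with this block. TGFB1 was lower in 4 of 4 pairs (-0.49, SE 0.11, adjusted p = 0.0169, limma), and TGFB2 (0.36, adjusted p = 0.0674, limma) and INHBB (0.21, adjusted p = 0.102, limma) were higher in 4 of 4, but none of these 3 passed on all 5 scalings. With near-duplicate libraries averaged, which leaves 2 libraries per line, the block passed 0 members and 0% of all tested genes (limma). TGFB1, INHBA and SMAD3, 3 members, were at an unadjusted p under 0.05 on all 5 scalings, beside 127 of all tested genes (limma). The 3 are therefore not read as a trait of the members. On the median of ratios scale alone, the adjusted p with averaging was 0.000225 for TGFB1, 0.00837 for TGFB2, 0.0118 for SMAD3 and 0.0141 for INHBA (limma). It was 0.278 for INHBB, 0.506 for BMPR1A and 0.769 for TGFBR2 (limma). For the first 4 of these genes, the 0 came from the demand for all 5 scalings. With 2 averaged libraries per line, these p-values lean on the spread that limma shares across genes. They do not settle whether a member differed between the lines, and the share of all tested genes on that scale alone is not given.

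HSL119 and the knockdown lines are compared with the same CTL libraries, so their differences share that error, and the direct difference between HSL119 and the mean of KD1 and KD2 is given instead. It was -3.23 for TGFB1, -4.73 for TGFB2, -3.55 for INHBA, -2.58 for INHBB and -1.93 for SMAD3. These 5 passed as lower in HSL119, where 24.6% of all tested genes passed as lower, and the count is a description for the same reason as above. TGFBR2 and BMPR1A were higher in HSL119, by 0.38 and 0.57, and did not pass, with 22.2% of all tested genes passing as higher. For the receptor genes HSL119 and both lines thus lay on the same side of CTL. For TGFB2 and INHBB the compound lay below CTL and the mean of each line above it, and the INHBA difference came from the knockdown libraries.

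The panel held 42 other genes of the pathway from a list of ligands, carriers, antagonists, receptors, SMADs, partners and known targets, and 36 of them passed the filter. In HSL119 against CTL, 7 of the 36 rose and 7 fell, beside 20.3% and 18.2% of all tested genes, and their median difference was 0.20 against 0.05 for all genes. In KD1 2 rose and 1 fell, and the median was 0.09 against 0.01. In KD2 5 rose and 0 fell, and the median was 0.14 against -0.01. The shares of all tested genes were 6.91% higher and 1.13% lower in KD1, and 8.68% and 2.41% in KD2. With only CTL and the line compared in the limma fit, 0 of the 36 passed in KD1 and 0 in KD2 (5 and 6 at an unadjusted p under 0.05 in all 10 fits), the EP300 calls included.

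Among ligands and proteins that hold or block them, 3 of 14 fell in HSL119 and 1 rose, beside 18.2% and 20.3% of all tested genes. THBS1, thrombospondin 1, which can activate latent TGF-beta, fell from 780 to 1093 in CTL to 70.7 to 84.8 in HSL119, a difference of -3.55 (SE 0.32, adjusted p = 2.38e-07, limma). FSTL1 fell by 1.47 on the log2 scale, and FSTL3, a follistatin-like protein that binds activin, fell by 1.43, a call that was lost without CTL replicate 1 or 3, KD1 replicate 1, 2 or 3 or KD2 replicate 1 or 3. LTBP1, which tethers latent TGF-beta to the matrix, rose by 0.92 (SE 0.12, adjusted p = 6.80e-06, limma). In KD2, BMP7, a BMP ligand, rose by 1.26 (SE 0.17, adjusted p = 6.03e-05, limma) and THBS1 by 1.44 (SE 0.30, adjusted p = 0.00126, limma). The BMP7 call was lost without CTL replicate 3 or HSL119 replicate 1 or 3, and the THBS1 call without any 1 HSL119 library, KD1 replicate 3 or KD2 replicate 4. No gene of this group passed in KD1, where THBS1 was 2502 and 2505 in replicates 1 and 2 and 1218 and 1163 in replicates 3 and 4, above the highest CTL library at 1093.

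Of the 4 other receptor genes tested, BMPR2, the type II receptor for BMP ligands, rose in HSL119 by 1.07 (SE 0.07, adjusted p = 8.55e-09, limma), from 597 to 624 in CTL to 1222 to 1386. It stayed within 554 to 699.8 in the knockdown libraries. ACVR1B, an activin type I receptor, passed only in HSL119 against the mean of the knockdown lines, by 0.64 (SE 0.09). No receptor gene of this list passed in KD1 or KD2 against CTL, whereas the member BMPR1A was higher in both lines.

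Among 8 SMADs and their partners, 4 rose in HSL119 and 0 fell, beside 20.3% and 18.2% of all tested genes. With so few genes, the count is not read as a result about this role. EP300, a histone acetyltransferase that SMAD3 recruits, rose by 1.82 (SE 0.06, adjusted p = 7.70e-12, limma), from 774 to 806 in CTL to 2660.0 to 2947. It also rose in KD1, by 0.67 (SE 0.05, adjusted p = 7.54e-07, limma), and in KD2, by 0.68 (SE 0.05, adjusted p = 5.74e-07, limma), with all 8 knockdown libraries between 1219.5 and 1333. The related CREBBP rose in HSL119 by 1.08, ZFYVE9, which presents SMADs to the receptor, by 1.11, and SMAD1, a transducer of BMP signals, by 0.61. SMURF2, a ubiquitin ligase that acts on SMADs and receptors, rose in KD1 by 0.61 (SE 0.08, adjusted p = 4.54e-05, limma). The SMURF2 call was lost without any 1 HSL119 library, KD1 replicate 2 or KD2 replicate 3, the EP300 call in KD1 without HSL119 replicate 2, and the SMAD1 call without any 1 HSL119 library or KD1 replicate 2. SMAD4, the partner shared by both branches, passed only in HSL119 against the knockdown mean, by 0.64 (SE 0.06).

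Of 10 genes listed as targets of the pathway, 4 fell in HSL119 and 1 rose, beside 18.2% and 20.3% of all tested genes. A few of the falls were steep. VIM, vimentin, fell by 4.33 on the log2 scale (SE 0.13, adjusted p = 7.70e-12, limma), from 1905 to 2057 in CTL to 96.7 to 102.9. SNAI2, a repressor of epithelial genes, fell by 3.35 (SE 0.18, adjusted p = 1.21e-09, limma), from 1040.0 to 1147.5 to between 85.0 and 118. MYC, which TGF-beta is known to repress in normal epithelium, fell by 1.92 (SE 0.12), and ID4, a BMP target, fell by 1.44 (SE 0.38), a call lost without CTL replicate 1, any 1 HSL119 library or KD2 replicate 4. CDKN1A, which encodes the cell cycle inhibitor p21 and is known to be induced by TGF-beta, rose by 1.63 (SE 0.12, adjusted p = 1.64e-08, limma). The list thus moved both ways, and 5 of the 10 genes did not pass in HSL119. Whether TGF-beta signalling had a part in these changes was not tested.

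In KD2 SNAI2 rose by 1.24 (SE 0.17, adjusted p = 5.31e-05, limma) and VIM by 1.73 (SE 0.12, adjusted p = 2.22e-07, limma). VIM stood at 7368, 7395, 7399 and 4661 in KD2 but at 1822 to 1948 in KD1, which overlapped CTL. VIM was the gene that separated the lines, by -1.80 (SE 0.12, adjusted p = 5.13e-07, limma) in KD1 against KD2, a call lost without KD2 replicate 3. SNAI1, a repressor related to SNAI2, did not pass in any comparison, although its libraries did not overlap CTL. It stood at 3895 to 4244 in CTL, at 615 to 704 in HSL119, at 1565, 1543, 182 and 210 in KD1 and at 1353, 1299, 216 and 191 in KD2, with differences from CTL of -2.64 (SE 0.84), -2.88 (SE 0.78) and -2.97 (SE 0.78). It was thus on the other side of CTL from SNAI2 in both lines. The fit shares 1 estimate of spread over the groups, so the SE for HSL119 includes the spread of the knockdown libraries. The SD of log2 SNAI1 was 0.06 in CTL and 0.10 in HSL119, but 1.73 in KD1 and 1.56 in KD2. ID2, a BMP target, fell in KD1 by 3.69 (SE 0.77, adjusted p = 0.00146, limma), from 445 to 579 in CTL to 102, 127, 17.9 and 11.2. In KD2 it was 154, 160, 24.2 and 31.6 and did not pass, and in HSL119 it was 199, 146 and 154 and did not pass either. The SD of log2 ID2 was likewise 0.17 in CTL and 0.24 in HSL119, but 1.76 in KD1 and 1.46 in KD2. The ID2 call was lost without any 1 of the 3 HSL119 libraries.

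**Figure D4:**
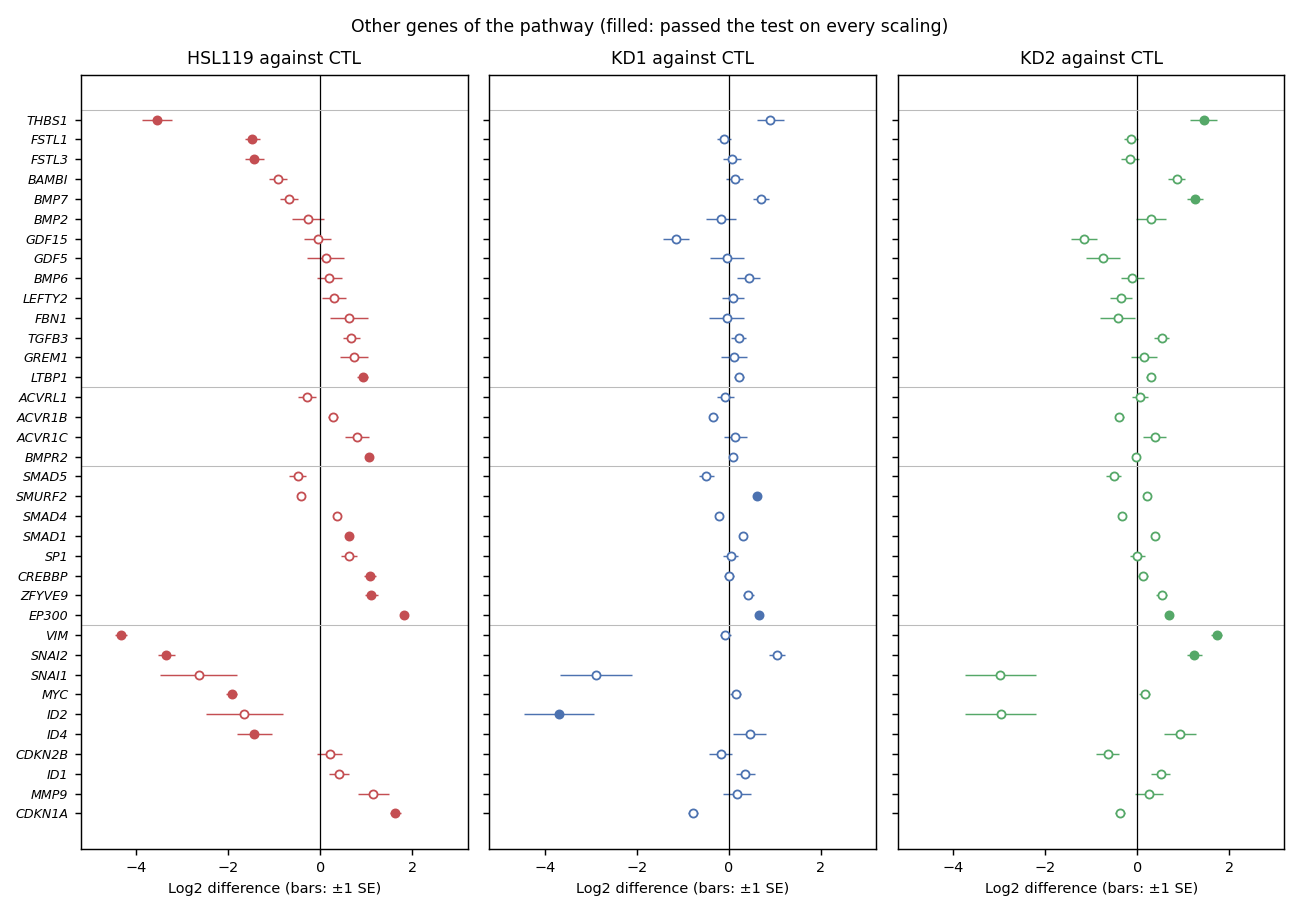
Log2 differences from CTL of the 36 other pathway genes tested, in HSL119, KD1 and KD2, one row per gene, with roles separated by grey lines (ligands, carriers and antagonists at the top, then receptors, SMADs and partners, and targets). Filled points passed the test, and the farthest values are VIM in HSL119 at -4.33 and ID2 in KD1 at -3.69.

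In HSL119 against the mean of the knockdown lines, 9 of the 36 rose and 9 fell, beside 22.2% and 24.6% of all tested genes. The farthest falls were those of VIM (-5.16), THBS1 (-4.73) and SNAI2 (-4.49), close in size to the difference of TGFB2 (-4.73). BMP7 (-1.66), FSTL1 (-1.36), BAMBI (-1.42), a decoy receptor, SMURF2 (-0.83), ID4 (-2.13) and MYC (-2.08) also fell. CDKN1A (2.21), EP300 (1.15), GDF15 (1.09), BMPR2 (1.04), CREBBP (1.01), LTBP1 (0.66), ACVR1B, SMAD4 (0.64 each) and ZFYVE9 (0.63) rose. GDF15, a distant family member, was near the floor, at 8.4 to 40.3 over the 15 libraries, and its call was lost without HSL119 replicate 2 or HSL119 replicate 3, that of ZFYVE9 without HSL119 replicate 2 or HSL119 replicate 3.

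The panel genes whose values were most like each member's were found by the root mean square difference of log2 values over the 15 libraries, each gene set to its CTL mean. For TGFB1 they were PTGER3 (0.364) and GPC4 (0.369), where the median over all genes was 1.80. For TGFB2 they were ITGB6 (0.610) and THBS1 (0.684), against a median of 2.04. INHBA had no close match, with DKK1 at 0.920 and HIST1H1C at 0.975 against 2.38. For INHBB they were RRM2 (0.275) and TUBA4A (0.321), against 1.20, and for SMAD3 the closest was MYC (0.208), against 1.03. TGFBR2 was closest to PARP4 (0.119) and FOXM1 (0.148) and BMPR1A to ADCY9 and CENPF (0.195 each), against 0.851 and 1.25. No other member was among the 2 closest genes of any member, and these values describe these libraries only.

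The labelled cell type was checked against its markers. Of 8 markers of HER2-positive breast epithelium 4 were on the panel (ERBB2, GRB7, CDH1 and KRT7), and all were detected in every library. Their summed scaled count was 52258 to 57108 in CTL, 42864 to 48665 in HSL119, 37956 to 44552 in KD1 and 31587 to 41831 in KD2. ERBB2 was 4635 to 5038 in CTL and 12964 to 15528 in HSL119, and CDH1 was also higher in HSL119 (a mean of 10800 against 6818 in CTL). GRB7 (16400 against 34625) and KRT7 (4298 against 8028) were lower. Summed fibroblast markers (4 of 8 on the panel), mostly PDGFRA, were 356 to 418 in CTL, 283 to 331 in HSL119, 341 to 362 in KD1 and 329 to 379 in KD2, while DCN was over the floor in 1 library. Endothelial ones (5 of 6), among which PECAM1 had a mean of 106 in KD1, 114 in KD2 and 18.9 in CTL, were 58.9 to 89.4 in CTL, 92.7 to 120.0 in HSL119, 89.1 to 234 in KD1 and 101 to 306 in KD2. Leukocyte markers (3 of 10), of which CD68 made up most, were 445 to 484 in CTL, 136 to 156 in HSL119, 211 to 379 in KD1 and 269 to 442 in KD2. No marker summed here was at 0 in all libraries. The part of these markers in the results was not tested, and in bulk RNA fewer cells with a transcript and less of it per cell cannot be told apart.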

How the data were processed

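RNA from 15 libraries of JIMT-1 cells was measured on a panel of 758 genes. The deposited table gives, per the file headers, log2 values and a linear signal of normalized counts per gene and library, and the assay's software and normalization are not given in the sources used here. The linear signal the authors deposited is in whole multiples of 1 unit per library, so counts were recovered from it (100% whole within 0.01). All columns were mapped to samples, and groups came from the sample titles.

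The log2 values the authors deposited were shifted per library by the median of ratios, since the log2 and linear blocks differ by group (log2 block minus log2 of the linear block -0.176 to -0.132 in CTL, 0.162 to 0.188 in HSL119). Genes with a linear value over 20 in at least 3 libraries were tested (622, with 136 left out). limma 3.58.1 in R 4.3.3 (lmFit, contrasts.fit, eBayes with trend, two-sided) was fitted to all 15 libraries in 4 groups with Benjamini-Hochberg adjustment over 622 genes. To pass, a gene needed an adjusted p under 0.05 and 1 sign in 10 fits. These used 5 scalings (median of ratios, deposited log2, log2 of linear plus 1, sample medians, quantile), once with every library and once with near-duplicates (replicates 1 with 2, 3 with 4, outside HSL119) merged into their mean. Same-numbered libraries of KD1 and KD2 correlated at 0.594 to 0.764 in their deviations from the group means, differently numbered ones within replicates 1 and 2 or within 3 and 4 at 0.553 to 0.780, and ones across these pairs at -0.771 to -0.556, so KD1 against KD2 was also fitted with a replicate block, added after seeing the data. The labels give no source for this pairing, and numbers did not pair other groups. edgeR 4.0.16 on the recovered counts was an alternative chosen after seeing the data. The median of ratios fit alone was also run on simulated independent libraries with changes set only in HSL119. That run had no near-duplicates and did not use the rule of 10 fits, so it does not bear on the knockdown results. Counting error was not modelled in the SE values.

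The members, the list of other pathway genes and the call rule were chosen with earlier results of these data known. All members are named, and of the other genes each that passed in any comparison, with the 2 panel genes most like each member, apart from 1 gene that is not reported here. Nothing in the labels says that the libraries of a group came from separate cultures.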

Additional observations from a re-analysis of the deposited data

Results flagged for a closer look

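TGFB1 in KD2 was the 1 group of 21 (7 genes in the 3 groups of 4 libraries) with a library far from the others. Replicate 4 had a scaled count of 780.5, against 1201, 1260.4 and 1213 in replicates 1 to 3, and its gap to the nearest library was 0.899 of the group's range on the log2 scale. Chance gives such a gap in about 1 of 20 groups. Without that library the difference of TGFB1 from CTL in KD2 was -0.08 in place of -0.25, and that of KD1 from KD2 was -0.66 in place of -0.50.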

How the results depend on the processing

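The number of other pathway genes that passed was 14 in HSL119, 3 in KD1, 5 in KD2 and 18 in HSL119 against the knockdown mean, and 0 members passed in KD1 against KD2. A single scaling passed more genes than all 5 together. In HSL119, KD1 and KD2 in turn the counts were 26, 25 and 22 on the deposited log2 values (17, 21 and 19 of them higher), 26, 17 and 20 on log2 of linear plus 1 (14, 13 and 17 higher), 25, 13 and 18 with quantile scaling (14, 6 and 10 higher) and 26, 14 and 21 with the median of ratios (14, 7 and 13 higher). With sample medians they were 13 in KD1 and 17 in KD2 (6 and 8 higher), and 21 in HSL119 (8 higher). On the median of ratios alone, 33.1% of all tested genes passed as higher and 34.6% as lower in HSL119. The shares were 24.3% and 21.9% in KD1 and 28.9% and 24.4% in KD2. The deposited log2 values put the typical gene 0.41 to 0.43 above CTL in all 3 groups, and the counts of higher genes there include that shift. Members of KD1 against KD2 numbered 2 on deposited log2 values, linear values and sample medians and 1 with quantile scaling.

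With near-duplicate libraries not averaged, KD1 had 10 and KD2 11, and the replicate block gave the same 10 and 11, with 0 members in KD1 against KD2. Same-numbered libraries of different groups correlated from -0.214 to 0.764 after group means were removed (21 pairs), against -0.771 to 0.780 for different numbers (63 pairs). The numbers thus pair the libraries of the knockdown lines at most, and there no more closely than the pair of replicates does. With the replicate block on the knockdown libraries only, 2 members passed in KD1 against KD2, and 0 with near-duplicates averaged. With only the groups compared in the limma fit, both KD1 and KD2 had 0, with 5 and 6 at an unadjusted p under 0.05 in all 10 fits. Libraries 1 and 2 alone gave 9 in KD1, 11 in KD2 and 2 members in KD1 against KD2, and libraries 3 and 4 alone gave 11, 14 and 1. edgeR, added after seeing the data, gave 14, 18 and 1. Leaving out 1 library at a time gave 12 to 15 in HSL119, 0 to 4 in KD1 (0 without HSL119 replicate 2, 1 without replicate 1 or 3), 3 to 5 in KD2, 0 members in KD1 against KD2, and 17 to 18 in HSL119 against the knockdown mean. The causes were not tested. Of 35 differences of the members, 31 kept their sign under every alternative run, and those of TGFB1 and TGFB2 in KD2, SMAD3 in KD1 and TGFBR2 in KD1 against KD2 did not. INHBA in CTL and HSL119 lies near the floor of 20, which limits its precision.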
